A study of Mus musculus with 6 samples.

Results

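The 9 transcription factors described here direct the fate of helper T cells: Tbx21 (T-bet), Eomes, Gata3, Rora, Bcl6, Maf, Prdm1 (Blimp-1), Runx1 and Runx3. They were chosen as the rows with these gene symbols in the deposited tables, 9 of 54532 genes, and each symbol matched 1 row. The libraries are bulk RNA-seq of splenic CD4+ T cells from wild-type C57BL/6J mice with colitis caused by dextran sulfate sodium (DSS) in the drinking water. In 1 group of 3 libraries the mice also received Akkermansia muciniphila, a mucin-degrading gut bacterium, every day, and in the other group of 3 they received phosphate-buffered saline (PBS). DSS was thus common to both groups, and no library from mice without colitis was analysed here. Age, sex, doses, the length of treatment and the method of cell isolation were not given in the sources used here. Labels differ on the cells: the description field names CD5 or CD6 in place of CD4 for the libraries numbered 2 and 3 of both groups, while the cell type entry of all 6 names CD4.

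As background, a naive CD4+ T cell adopts a helper program under the cytokines it meets, and each program is held by a lineage factor. T-bet, helped by Eomes, drives interferon-gamma production in Th1 cells, GATA3 drives the Th2 cytokines, and ROR-alpha supports the Th17 program. BCL6 sets the follicular helper (Tfh) program and is opposed by Blimp-1, while c-MAF drives IL-10 and IL-21 and RUNX proteins, bound to their partner CBF-beta, act with the other factors and silence or maintain coreceptor genes.

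Of the 9 factors, Runx3 rose with Akkermansia, by 1.46-fold, Prdm1 fell, by 1.51-fold, and 7 did not pass the test, among them the lineage factors of Th1, Th2 and Tfh cells. Runx3 kept its call in all 15 alternative fits, whereas Prdm1 lost its call in 8 of the 15. Over all 15138 genes tested, 7.32% were called higher and 8.28% lower, 15.6% in either direction, so 1 of 9 in each direction is near that background. The median log2 fold change was 0.09 over the 9 factors and -0.01 over all genes tested. The groups of 3 did not overlap for Runx3, Runx1 and Eomes (higher with Akkermansia) and for Prdm1 (lower), against 17.1% of all genes tested in the higher and 17.8% in the lower direction. Levels are given as CPM, counts scaled to a common library total with edgeR's TMM factors, fold changes are Akkermansia over PBS on the log2 scale with standard errors (SE), and calls have an adjusted p under 0.05 in edgeR's quasi-likelihood test. The factors had 191 to 3231 counts per library, in libraries of 15032257 to 16677923 counts, and all 9 passed the filter on low counts. The libraries are described as biological replicates.

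Runx3 and Runx1 are each transcribed from an upstream and a downstream promoter, and RefSeq windows are shown here because the counts sum both starts of a gene and cannot tell them apart. Printed are both Runx3 windows, the upstream Runx1 window and the Prdm1 window. The downstream Runx1 window, chr16:92697280-92697579 on the minus strand, was searched but is not printed. Each window runs from 250 bases before to 50 bases after the annotated start, 5′ to 3′ on the gene's strand, in build GRCm38.p6, an older build than the GRCm39 named in the submitters' processing notes. Capitals mark the RUNX motif TGTGGT or its reverse complement ACCACA and, in Prdm1, the AP-1 motif TGANTCA. The upstream Runx3 window is chr4:135120395-135120694 on the plus strand, the downstream Runx3 window is chr4:135152295-135152594 on the plus strand, the upstream Runx1 window is chr16:92826025-92826324 on the minus strand and the Prdm1 window is chr10:44458699-44458998 on the minus strand.
Runx3 upstream: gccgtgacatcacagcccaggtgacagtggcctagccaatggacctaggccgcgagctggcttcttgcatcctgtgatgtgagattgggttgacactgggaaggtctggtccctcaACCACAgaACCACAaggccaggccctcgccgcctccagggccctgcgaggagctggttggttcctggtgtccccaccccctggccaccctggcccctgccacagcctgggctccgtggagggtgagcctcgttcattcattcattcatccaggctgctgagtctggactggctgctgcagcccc
Runx3 downstream: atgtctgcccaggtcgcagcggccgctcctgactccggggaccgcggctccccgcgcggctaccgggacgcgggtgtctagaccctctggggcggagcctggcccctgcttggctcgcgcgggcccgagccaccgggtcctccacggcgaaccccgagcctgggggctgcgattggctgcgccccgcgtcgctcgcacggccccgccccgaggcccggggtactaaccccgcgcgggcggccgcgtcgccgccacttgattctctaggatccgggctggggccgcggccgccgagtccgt
Runx1 upstream: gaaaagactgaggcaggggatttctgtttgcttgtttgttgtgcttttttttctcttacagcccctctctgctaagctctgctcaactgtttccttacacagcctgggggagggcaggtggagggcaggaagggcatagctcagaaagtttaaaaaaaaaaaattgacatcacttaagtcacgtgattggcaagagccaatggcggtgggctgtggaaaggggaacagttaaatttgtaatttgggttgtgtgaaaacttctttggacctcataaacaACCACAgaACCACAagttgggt
Prdm1: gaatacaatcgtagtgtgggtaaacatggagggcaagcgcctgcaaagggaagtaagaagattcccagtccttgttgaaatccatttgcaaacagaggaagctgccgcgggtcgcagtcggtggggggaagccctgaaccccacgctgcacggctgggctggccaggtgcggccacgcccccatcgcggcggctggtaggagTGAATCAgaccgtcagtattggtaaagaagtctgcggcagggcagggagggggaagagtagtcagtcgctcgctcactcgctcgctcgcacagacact

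Both upstream RUNX gene windows held 2 RUNX motifs that lie 2 bases apart, and they shared the run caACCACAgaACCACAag of 18 bases. In Runx3 the pair began 134 and 126 bases before the annotated start, and in Runx1 it lay 28 and 36 bases after it. A RUNX motif on either strand was present in 16.8% of 32851 promoter windows, and 7 windows of 7 genes held 2 of them in 1 direction with that spacing. The downstream windows of both genes held none. Of the 9 factors 8 had 11 windows in the table, and Maf had no entry. No window of these 8 held the T-box motif AGGTGTGA (1.28% of all windows), the GATA motif AGATAA (11.2%) or the ROR motif AGGTCA (16.3%), searched on both strands, and the Prdm1 window held the only AP-1 motif (7.81% of all windows), 48 bases before the start. A match of letters is a description of the sequence and not a measured binding site.

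Runx3, which supports Th1 and cytotoxic programs and silences Cd4 in CD8 T cells, was higher in each Akkermansia library than in any PBS library. Its levels were 131, 121 and 145 CPM in Akkermansia libraries 1, 2 and 3 and 88.1, 82.7 and 101 CPM in PBS libraries 1, 2 and 3. The lowest of the first 3 values lies above the highest of the last 3. The means were 132 ± 11.9 and 90.5 ± 9.18 CPM (SD, n = 3), and the log2 fold change was 0.55 ± 0.09 (SE, 95% interval 0.35 to 0.74, edgeR adjusted p = 0.00161). In each of the 15 alternatives run the rise stayed past the threshold, with log2 fold changes from 0.48 to 0.63.

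Runx1, which acts in naive and regulatory T cells, was 135, 141 and 157 CPM with Akkermansia and 130, 126 and 129 CPM with PBS. The groups did not overlap, and the 3 PBS libraries lay within 1.03-fold of each other, the narrowest spread of the 9 factors in that group. The log2 fold change was 0.17 ± 0.07 (SE, 95% interval 0.01 to 0.33), which did not pass after adjustment (adjusted p = 0.131). Cbfb, the common partner of RUNX proteins, was 177 ± 3.21 and 162 ± 9.23 CPM (SD, n = 3; log2 fold change 0.13, adjusted p = 0.222), and the third family member, Runx2, was 25.4 ± 10.02 and 24.0 ± 5.82 CPM (0.08, adjusted p = 0.899), with a sign that turned in 3 alternatives.

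**Figure D1:**
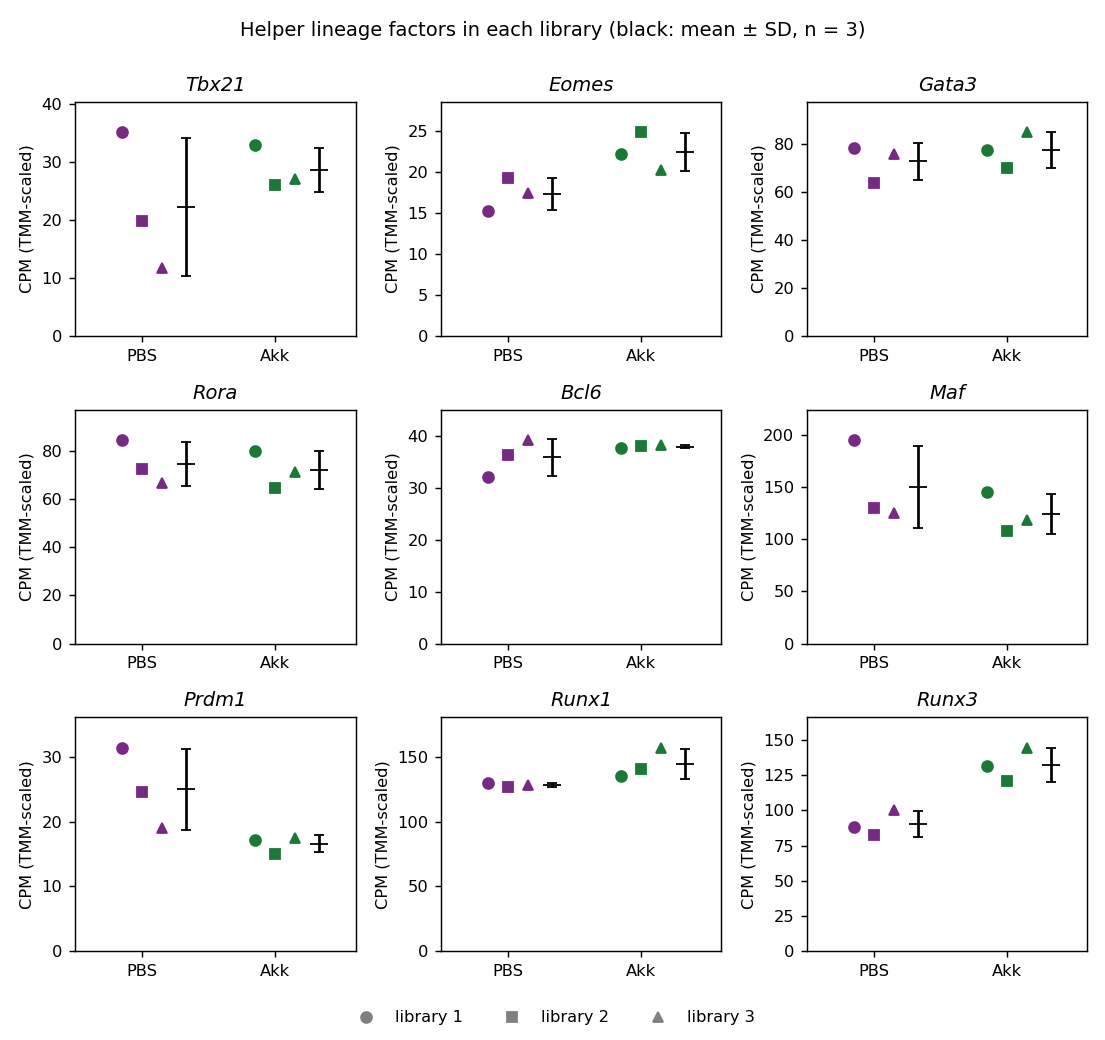
TMM-scaled CPM of the 9 factors (y axes, from 0) in 3 PBS and 3 Akkermansia (Akk) libraries, 1 panel per gene, with circles, squares and triangles for libraries 1, 2 and 3 and black bars for mean ± SD (n = 3). The Runx3 points of the Akkermansia group lie at 121 to 145 CPM above the PBS points at 82.7 to 101 CPM, and the PBS points of Tbx21 spread from 11.7 to 35.0 CPM.

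Prdm1 encodes Blimp-1, a repressor that ends Bcl6-driven programs in T and B cells and promotes IL-10. Its levels were 17.2, 15.1 and 17.5 CPM with Akkermansia and 31.4, 24.6 and 18.9 CPM with PBS. The groups did not overlap, but PBS library 3 lay close to the Akkermansia libraries. The means were 16.6 ± 1.31 and 25.0 ± 6.24 CPM (SD, n = 3), and Prdm1 fell by 0.59 ± 0.17 on the log2 scale (SE, 95% interval -0.95 to -0.23, edgeR adjusted p = 0.0325). The call was lost without PBS 1 (edgeR adjusted p = 0.124, log2 fold change -0.40) or PBS 2 (0.064, -0.60). It was also lost without Akkermansia 1 (0.0862, -0.61), Akkermansia 2 (0.130, -0.52) or Akkermansia 3 (0.0872, -0.63). With limma-voom (adjusted p = 0.0556) and limma-trend on log2(FPKM + 1) or log2(FPKM + 0.1) (0.112 and 0.109) Prdm1 did not pass either. The call was kept without PBS 3 (edgeR adjusted p = 0.0034, log2 fold change -0.75).

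Bcl6, the Tfh regulator that opposes Prdm1, was 37.8, 38.1 and 38.3 CPM with Akkermansia and 32.2, 36.5 and 39.3 CPM with PBS. The 3 Akkermansia values all fell inside the PBS range. The log2 fold change was 0.08 ± 0.10 (SE, 95% interval -0.13 to 0.29, adjusted p = 0.628), and its sign turned without PBS 1. Per gene length, the ratio of Bcl6 to Prdm1 FPKM (log2, with 0.1 added to each value) was 0.85, 1.05 and 0.85 in Akkermansia libraries 1 to 3 and -0.22, 0.30 and 0.77 in PBS libraries 1 to 3. The Akkermansia values lay above all PBS values. The difference of 0.63 had an exact permutation p of 0.1, two-sided, which is the smallest that 3 against 3 allows (0.2 after Benjamini-Hochberg adjustment over 4 ratios).

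The same was done for Runx1 to Runx3, a pair of paralogues. This log2 FPKM ratio was -1.22, -1.04 and -1.14 with Akkermansia and -0.70, -0.65 and -0.91 with PBS. Runx3 exceeded Runx1 per length in all 6 libraries, and more so in the 3 Akkermansia libraries, without overlap (difference -0.38, exact permutation p = 0.1, two-sided, adjusted 0.2). Tbx21 to Gata3, the Th1 and Th2 antagonists, had log2 ratios of -0.56, -0.75 and -0.97 against -0.48, -1.01 and -2.00, and the difference of 0.40 became -0.01 without PBS 3. Here the PBS libraries enclosed the Akkermansia libraries (exact permutation p = 0.6, two-sided, adjusted 0.8). For Tbx21 to Eomes, the 2 T-box paralogues, the difference was 0.13 (exact permutation p = 0.8, two-sided, adjusted 0.8) and turned to -0.26 without PBS 3.

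**Figure D2:**
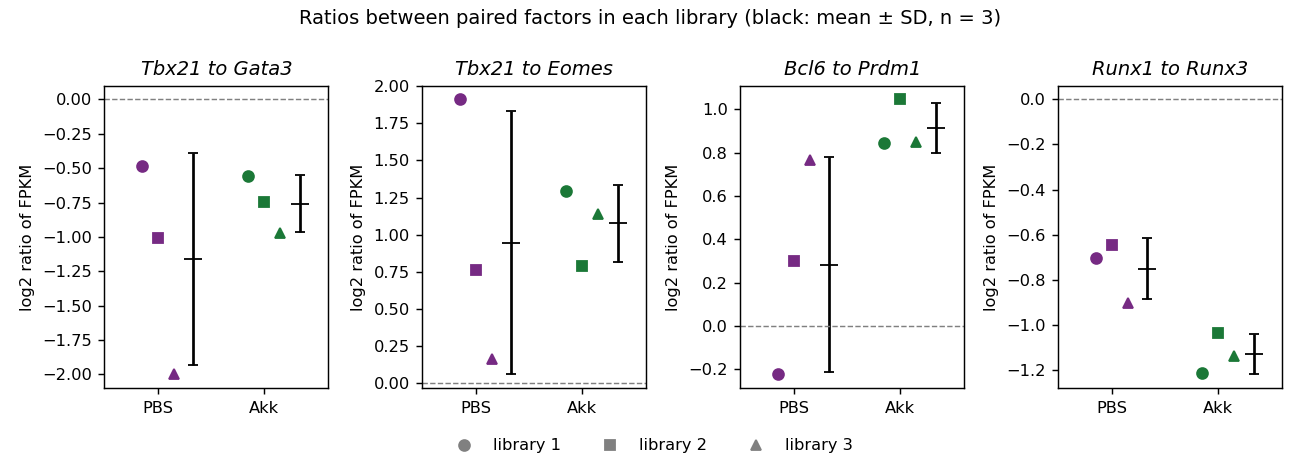
Log2 ratio of FPKM (y axes) between paired factors in 3 PBS and 3 Akkermansia libraries, with circles, squares and triangles for libraries 1, 2 and 3 and black bars for mean ± SD (n = 3). The groups are apart for Bcl6 to Prdm1 (0.85 to 1.05 against -0.22 to 0.77) and for Runx1 to Runx3 (-1.22 to -1.04 against -0.91 to -0.65), and they overlap for the other pairs.

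Tbx21, the Th1 factor, differed more among the PBS libraries than between the groups. It was 32.9, 25.9 and 27.0 CPM with Akkermansia and 35.0, 19.8 and 11.7 CPM with PBS. PBS 1 was the highest and PBS 3 the lowest of all 6 libraries, so the PBS range enclosed the Akkermansia range. Within the PBS group the highest Tbx21 value was 2.99 times the lowest, whereas the median over 8862 genes with a mean of at least 10 CPM was 1.17 and their 95th percentile 1.595. The log2 fold change was 0.37 ± 0.43 (SE, 95% interval -0.77 to 1.4998, edgeR adjusted p = 0.643). Without PBS 1 it was 0.85 and passed the threshold (adjusted p = 0.047), and without PBS 3 it was 0.06 (adjusted p = 0.907).

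Eomes, the T-box paralogue of Tbx21 that is also high in CD8 memory and natural killer (NK) cells, was 22.2, 24.8 and 20.2 CPM with Akkermansia and 15.3, 19.2 and 17.4 CPM with PBS. Every Akkermansia library lay above every PBS library, although Akkermansia 3 and PBS 2 were close. The log2 fold change was 0.37 ± 0.13 (SE, 95% interval 0.10 to 0.65), with an adjusted p of 0.0664, which did not pass. It passed without PBS 2 (0.46, adjusted p = 0.0336) and with no filter on low counts (0.39, adjusted p = 0.0344).

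Gata3, the Th2 factor that all T cells also need, was 77.6, 69.8 and 84.9 CPM with Akkermansia and 78.4, 63.8 and 76.0 CPM with PBS. The groups overlapped, and the 95% interval of the log2 fold change, -0.12 to 0.30 around 0.09 ± 0.10 (SE, adjusted p = 0.581), leaves changes of up to 1.23-fold compatible with these libraries. Rora, which supports Th17 and innate lymphoid programs, was 79.99, 64.4 and 71.1 CPM with Akkermansia and 84.4, 72.4 and 66.5 CPM with PBS, again with overlap. Its log2 fold change was -0.05 ± 0.10 (SE, 95% interval -0.27 to 0.17, adjusted p = 0.787), and the sign turned without PBS 1 and without Akkermansia 2. Maf, which encodes c-MAF, was 146, 108 and 119 CPM with Akkermansia and 195, 130 and 125 CPM with PBS. PBS 1 stood above the other 5 libraries, which overlapped between groups. The Maf log2 fold change of -0.28 ± 0.22 (SE, 95% interval -0.82 to 0.27, adjusted p = 0.465) was -0.05 without PBS 1.

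**Figure D3:**
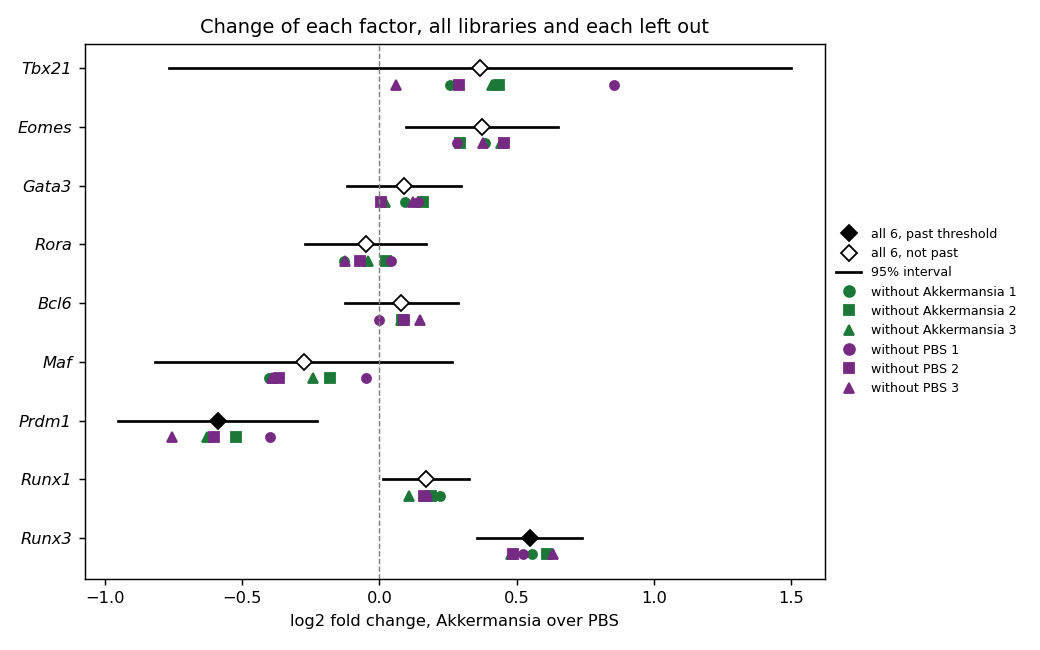
Log2 fold change of each factor, Akkermansia over PBS (x axis), with all 6 libraries (diamonds, filled where past the threshold, lines for the 95% interval) and with each library left out (coloured points under each line). Runx3 stays between 0.48 and 0.63, whereas Tbx21 moves from 0.06 without PBS 3 to 0.85 without PBS 1.

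Levels of different genes were compared as FPKM, which is per gene length. With PBS, Gata3 (18.2 FPKM), Maf (18.1) and Runx3 (18.0) were the highest means, and their ranges over libraries overlapped. Runx1 (10.6) and Tbx21 (8.85) followed, and Rora (5.66), Bcl6 (5.34), Prdm1 (4.45) and Eomes (4.14) were the lowest. Of the neighbours in this order only Runx3 and Runx1 had ranges that did not overlap. With Akkermansia, Runx3 (26.5 FPKM) was first, and its lowest library (24.1) lay above the highest Gata3 library (21.5). Gata3 (19.5), Maf (15.1), Runx1 (12.0) and Tbx21 (11.5) followed, each overlapping with its neighbour among these 4. Bcl6 (5.68), Rora (5.50) and Eomes (5.40) lay below the Tbx21 range and overlapped with each other, and Prdm1 (2.98) was last, below the range of Eomes.

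Of 9 factors, 4 (Tbx21, Rora, Maf and Prdm1) had their highest value of all 6 libraries in PBS 1, and the same 4 had their lowest PBS value in PBS 3. Among all genes tested, 13.9% had their highest PBS value in PBS 1 and their lowest in PBS 3. The same held for 11 of 18 genes of the Th1 list, 0 of 11 of the Th17 list and 5 of 14 Tfh genes. It also held for 4 of 12 genes of the IL-10 and coinhibitory list, 4 of 12 NK cell markers and 3 of 9 plasma cell markers. In the other lists the share ran from 0% (CD8 T cell, neutrophil, and platelet and erythroid markers) to 20% (B cell markers). These counts were noticed in the data and are given without a test. Picked after their values were seen, the chemokine gene Ccl5 (114, 55.1 and 32.6 CPM in PBS 1, 2 and 3) and the receptor gene Cxcr3 (77.2, 55.9 and 31.7 CPM) had this order. A link of this order to Tbx21 was not tested.

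Among 169 other genes of the lists with at least 5 CPM, likeness was measured as the mean absolute difference over the 6 libraries between centred log2 CPM values, where 0 would be the same pattern. Nearest to Tbx21 were Il18rap, an IL-18 receptor chain (0.04), and Nkg7, a granule protein (0.07), against a mean absolute deviation of Tbx21 itself of 0.43. Maf was nearest to Il2rb (0.05) and Il10ra (0.09), Prdm1 to Tox2 (0.14) and Pdcd1 (0.14), and Runx3 to Stat6, the IL-4 signal transducer (0.09), and Tmem176a (0.10). Runx1 was nearest to Lef1 (0.03) and Cbfb (0.05), Eomes to Cd3e (0.09) and Foxp3 (0.09), Gata3 to Ets1 (0.05) and Foxp1 (0.07), Rora to Id2 (0.05) and Trac (0.09), and Bcl6 to Tcf7 (0.05) and Ccr7 (0.05). Runx1, Gata3, Rora and Bcl6 varied little themselves (mean absolute deviations of 0.09, 0.11, 0.12 and 0.07), so a small difference from them distinguishes less than it does for Tbx21. All values share the 6 libraries and their depth.

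**Figure D4:**
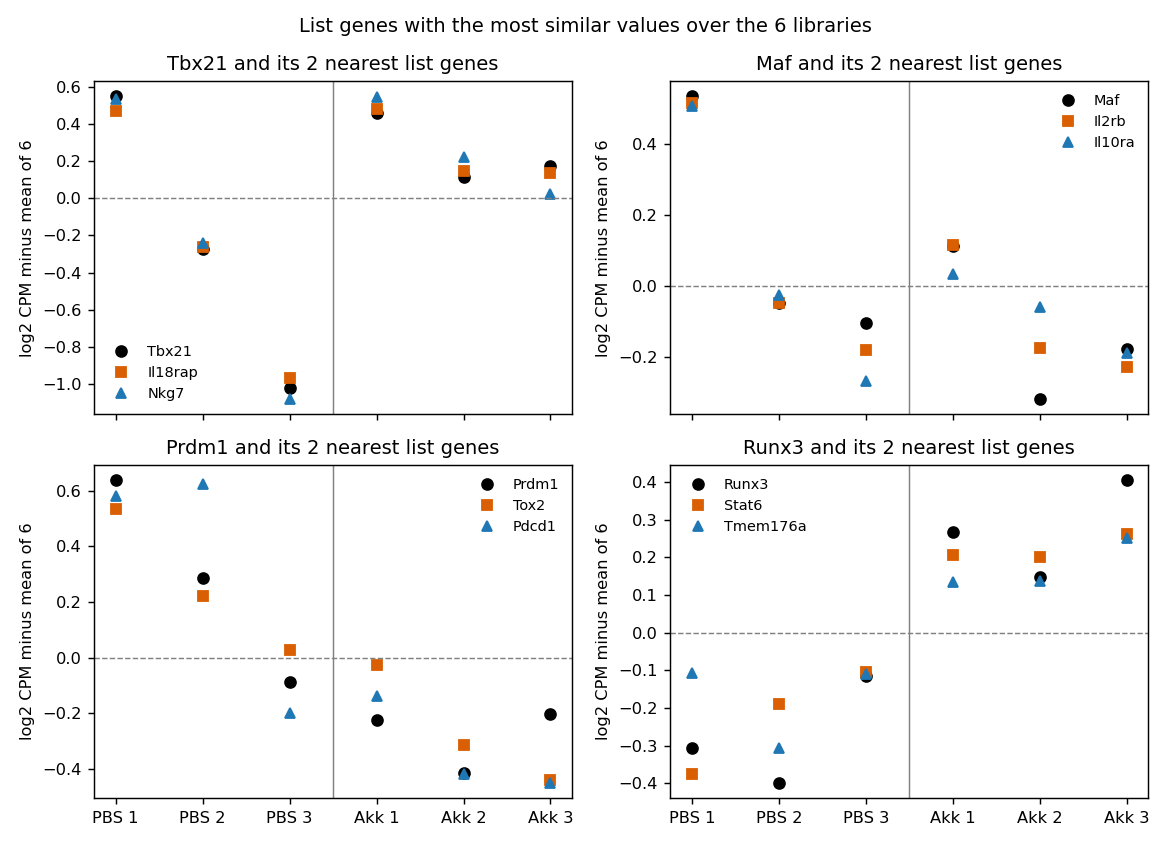
Log2 CPM minus its mean over the 6 libraries (y axes) for Tbx21, Maf, Prdm1 and Runx3 and the 2 list genes nearest to each, by library (x axes, PBS left and Akkermansia right of the grey line). Tbx21, Il18rap and Nkg7 are lowest in PBS 3, and Runx3 and Stat6 are below 0 in all PBS and above 0 in all Akkermansia libraries.

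Of 36 further factors of helper fate 35 were tested, of which 4 rose and 7 fell (median log2 fold change 0.00). Over all genes tested, 7.32% were called higher and 8.28% lower. Zbtb7b (ThPOK), which opposes Runx3 and maintains the CD4 lineage, averaged 250 ± 8.52 CPM in the Akkermansia group against 148 ± 7.51 CPM in the PBS group (SD, n = 3) and rose by 0.76 ± 0.07 (log2, SE, edgeR adjusted p = 4.1e-05). Klf2, a quiescence and egress factor, rose by 0.57 (adjusted p = 0.000634), and Stat6 by 0.44 (adjusted p = 0.00239). Nfil3, a basic leucine zipper repressor, had means of 13.2 ± 0.887 and 44.2 ± 12.0 CPM (SD, n = 3) and fell by 1.74 ± 0.20 (log2, SE, adjusted p = 0.000778). Hif1a, the hypoxia factor that favours Th17 cells, fell by 0.68 (adjusted p = 0.000122). Batf, an AP-1 factor of Th17 and Tfh cells, fell by 0.55 (adjusted p = 0.00748), and Tox, a factor of chronically stimulated and Tfh cells, by 0.44 (adjusted p = 0.00571). These 7 kept their calls in every alternative run, and the other 4, Pou2af1 (higher), Irf4, Ahr and Tox2 (lower), lost theirs in some fits without 1 library. Leaving out Akkermansia 2, or Akkermansia 3, brought the falls from 7 to 4. Foxp3, the regulatory T cell factor, was 105, 111 and 82.1 CPM with Akkermansia and 75.3, 90.8 and 94.4 CPM with PBS, and the groups overlapped (log2 fold change 0.19, edgeR adjusted p = 0.328).

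Of 18 Th1 genes 2 rose and 1 fell, and 15 did not pass (median log2 fold change 0.21). These counts are near the 15.6% of all genes tested that were called in either direction. Cxcr6, a chemokine receptor of effector T cells, averaged 53.1 ± 8.37 CPM in the Akkermansia group against 18.6 ± 4.86 CPM in the PBS group (SD, n = 3), rose by 1.51 ± 0.20 (log2, SE, edgeR adjusted p = 0.00274) and kept its call in all alternatives. Ccl3, a chemokine, rose by 0.99 (adjusted p = 0.0131), and Fasl, the death ligand, fell by 0.65 (adjusted p = 0.0423). Ifng, the main Th1 cytokine, was 23.4, 18.0 and 20.6 CPM against 49.4, 25.3 and 17.2 CPM, with PBS 1 again the highest (log2 fold change -0.57 ± 0.44, SE, adjusted p = 0.472). The number of rises was 4 without PBS 1 and 1 without Akkermansia 2 or Akkermansia 3, and the fall was lost without PBS 1, PBS 2, Akkermansia 2 or Akkermansia 3.

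Of 14 Th2 genes 9 were tested and 3 fell: Ccr8, a chemokine receptor (-0.80), Areg, the epidermal growth factor receptor ligand amphiregulin (-1.07), and Crlf2, a chain of the thymic stromal lymphopoietin receptor (-0.35). The median log2 fold change of the 9 was -0.27, and 8.28% of all genes tested were called lower. As background, Ccr8 and Areg are also expressed by regulatory T cells. Il4 was 1.33, 1.80 and 0.994 CPM with Akkermansia and 1.03, 1.18 and 1.17 CPM with PBS (adjusted p = 0.672), while Il5 and Il13 had too few counts to be tested. Leaving out PBS 1 left 1 of the falls, leaving out Akkermansia 2 or Akkermansia 3 left 0, and 1 gene, Ccr4, rose without PBS 3. Of 11 tested Th17 genes (median 0.18) 1 fell, the cytokine Il17f, near the 8.28% of all genes tested that were called lower. Il17f had 4, 4 and 3 reads counted in the Akkermansia libraries against 15, 32 and 51 in the PBS libraries (edgeR adjusted p = 0.00357). It passed the filter (minimum count 10) through the PBS libraries alone, which favours a call in the lower direction. With the filter of 1 CPM in 3 libraries Il17f was not tested, and 0 Th17 genes were called lower. Il17a did not pass (log2 fold change -0.36 ± 0.65, SE, adjusted p = 0.766). Il6ra, an IL-6 receptor chain, had an adjusted p of 0.0597 and was called higher in 5 alternatives, and 2 genes of this list rose without PBS 3.

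Of 14 Tfh genes 2 rose and 5 fell (median log2 fold change -0.27), against 7.32% of all genes tested called higher and 8.28% lower. Btla, a coinhibitory receptor, had means of 161 ± 6.27 and 240 ± 30.4 CPM (SD, n = 3) and fell by 0.58 ± 0.09 (log2, SE, edgeR adjusted p = 0.00101), and Icos, the costimulator that sustains Tfh cells, fell by 0.57 (adjusted p = 0.0181). Pdcd1 (PD-1), Cd200 and Gpr183 fell by 0.71, 0.50 and 0.43, and Cd40lg and S1pr2 rose by 0.32 and 0.56. Apart from Btla, all lost their calls in some fits without 1 library. The falls numbered 2 without PBS 1, PBS 2 or Akkermansia 3, 3 without Akkermansia 1 and 1 without Akkermansia 2. The rises numbered 1 without PBS 1, Akkermansia 1 or Akkermansia 2 and 0 without Akkermansia 3. More were called without PBS 3 (7 falls), without PBS 2 (3 rises) and with no filter on low counts (7 falls and 4 rises). Fewer were called with limma-trend (2 falls and 1 rise). Cxcr5, the follicle-homing receptor, was 42.0 ± 5.34 against 33.7 ± 7.59 CPM (SD, n = 3, adjusted p = 0.213), and Il21, the Tfh cytokine, was 6.70, 4.004 and 3.44 against 7.67, 11.9 and 3.99 CPM (adjusted p = 0.288).

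Of 12 genes of the IL-10 and coinhibitory list, which holds genes linked to Maf and Prdm1, 3 fell and none rose (median log2 fold change -0.39). Over all genes tested, 8.28% were called lower. The 3 were Il10, Il7r and Il2, and no coinhibitory receptor of the list passed. Il10 was 5.75, 3.604 and 3.97 CPM with Akkermansia and 14.2, 10.5 and 7.73 CPM with PBS, without overlap (log2 fold change -1.28 ± 0.25, SE, edgeR adjusted p = 0.00539). Il7r, the IL-7 receptor chain, fell by 0.53 (adjusted p = 0.0161), and Il2, a growth factor gene that Blimp-1 represses, fell by 1.498 (adjusted p = 0.0298). Tigit and Ctla4, coinhibitory receptors, had means of 21.6 against 48.7 CPM and 162 against 324 CPM and did not pass (adjusted p = 0.0558 and 0.0824). Tigit passed in 6 and Ctla4 in 5 of the 15 alternatives. Il10 kept its call in all 15, whereas Il7r lost it without Akkermansia 1 or Akkermansia 2. Il2 lost its call without any 1 library other than PBS 2, and its log2 fold change ranged from -1.73 to -0.71 over the alternatives. The falls numbered 1 without Akkermansia 2, 6 with DESeq2 and 5 with no filter on low counts.

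Of 13 RUNX partners and targets 11 were tested, 5 rose and none fell (median log2 fold change 0.16), against 7.32% of all genes tested called higher. Cbfa2t3, a corepressor of the ETO family, had means of 13.7 ± 1.21 and 5.69 ± 1.80 CPM (SD, n = 3) and rose by 1.28 ± 0.21 (log2, SE, edgeR adjusted p = 0.0016), and Cd4 was 891, 851 and 909 CPM with Akkermansia and 682, 723 and 660 CPM with PBS (0.36, adjusted p = 0.00428). Tle3 and Tle5 (listed as Aes), Groucho family members, rose by 0.29 each (adjusted p = 0.013 for both), and Spi1, the myeloid and B cell factor PU.1, rose by 0.52 (adjusted p = 0.0375). The rises numbered 3 without Akkermansia 1 or Akkermansia 3 and 2 without Akkermansia 2.

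Several of these factors are also active in other lymphocytes, so marker lists of other cells were read in the same libraries. Each count below is to be set beside the shares of all genes tested, 7.32% called higher and 8.28% lower. Of 14 genes of the CD4+ T cell list 5 rose (Cd4, Thy1, Lck, Cd5 and Cd3e) and 1 fell (Cd28). Most of this list, such as the CD3 chains, is shared with CD8 T cells. Its summed levels were 6660 to 6960 CPM with Akkermansia and 6060 to 6277 CPM with PBS. The rises numbered 3 without PBS 1, Akkermansia 1 or Akkermansia 3 and with limma-trend, with Cd3e losing its call in 6 and Cd5 in 5 alternatives. Both CD8 T cell markers rose (summed 61.3, 93.4 and 65.9 against 19.9, 20.2 and 19.1 CPM). So did 9 of 12 NK cell markers (156, 161 and 156 against 95.2, 94.5 and 82.4 CPM) and 15 of 15 B cell markers (1319, 1501 and 1462 against 930, 931 and 905 CPM). Klrb1c, Tyrobp and Fcer1g were the NK cell markers that did not pass. Klrc3, one of the 9 that rose, was tested in 13 of the 15 alternatives. The NK cell rises numbered 8 with DESeq2, limma-trend or the filter of 1 CPM in 3 libraries. They numbered 7 without Akkermansia 1 and 8 without Akkermansia 2 or Akkermansia 3. The B cell rises numbered 14 with limma-trend or without PBS 1 or Akkermansia 1, and 13 without Akkermansia 2 or Akkermansia 3. None of these markers was at 0 in all 6 libraries. The CD8 sum and Runx3 were both higher in every Akkermansia library than in any PBS library. Within the Akkermansia group, Akkermansia 2 had the highest CD8 sum and the lowest Runx3 level. A relation between the CD8 sum and Runx3 was not tested. Of 9 tested plasma cell markers, cells in which Prdm1 is high, 0 rose and Xbp1 fell, while 8 had a log2 fold change above 0 (median 0.59), and the summed level was 845 to 1063 CPM with Akkermansia and 304 to 741 CPM with PBS. The number of plasma cell markers that rose was 2 with DESeq2, with the replicate block and without PBS 2, and 1 with limma-voom, limma-trend, no filter on low counts, without PBS 1 or without PBS 3. Of the remaining lists, 3 of 9 dendritic cell, 2 of 14 monocyte and macrophage and 2 of 8 neutrophil markers rose, 2 of 9 platelet and erythroid markers fell, and of 6 group 2 innate lymphoid markers, which include Gata3 and Rora, only Areg fell. Leaving out 1 library gave 1 to 3 rises among the dendritic cell markers (1 without PBS 1, PBS 3, Akkermansia 1 or Akkermansia 3) and 1 to 4 among the monocyte and macrophage markers (4 without PBS 2, 1 without PBS 3, Akkermansia 2 or Akkermansia 3). It gave 2 to 3 rises among the neutrophil markers and 1 to 2 falls among the platelet and erythroid markers (1 without PBS 1, PBS 2, Akkermansia 1 or Akkermansia 3), and the fall of Areg was lost without PBS 1, Akkermansia 2 or Akkermansia 3. With DESeq2, 4 neutrophil markers rose and 4 platelet and erythroid markers fell. The part of other cells in the values of Runx3, Eomes, Prdm1, Spi1 and the lists above was not tested, and in bulk RNA more cells of a type and more RNA per cell cannot be told apart.

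**Figure D5:**
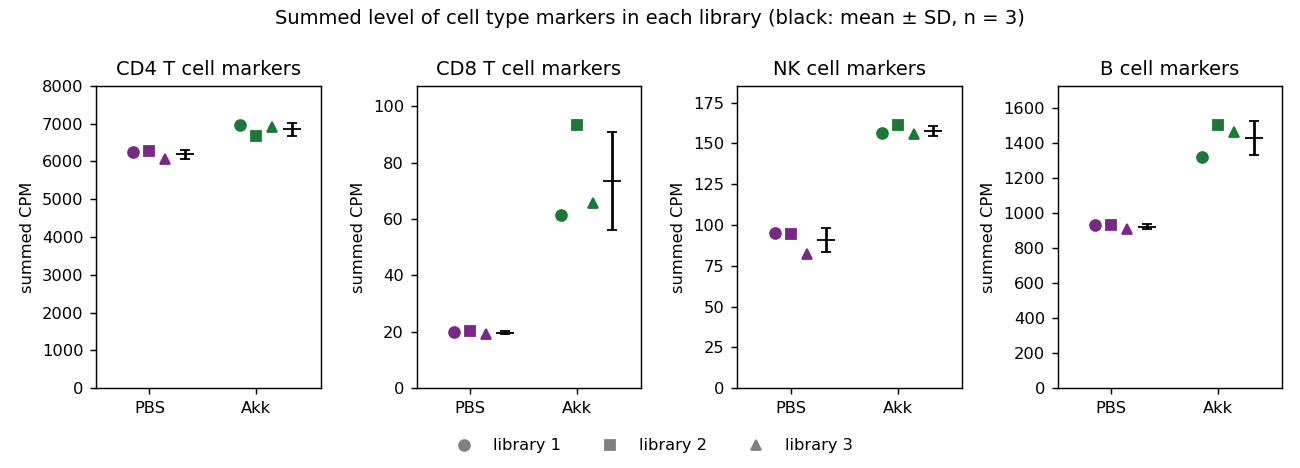
Summed TMM-scaled CPM (y axes, from 0) of 14 CD4 T cell, 2 CD8 T cell, 12 NK cell and 15 B cell markers in 3 PBS and 3 Akkermansia libraries, with circles, squares and triangles for libraries 1, 2 and 3 and black bars for mean ± SD (n = 3). The CD8 T cell sums lie at 61.3 to 93.4 CPM with Akkermansia and at 19.1 to 20.2 CPM with PBS, and the groups are also apart for the other lists. Most genes of the CD4 T cell list are shared with CD8 T cells.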

How the data were processed

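Poly(A)-selected RNA of 6 libraries was sequenced, all with the batch label 1. The authors deposited whole-number counts per gene and FPKM values, which divide by gene length and by library total. GRCm39 is the build named, per the submitters' processing notes. Aligner, counting program, annotation and strandedness were not given in the sources used here, so reads of genes on opposite strands could not be told apart. Libraries were grouped by their treatment entry.

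All counts entered 1 fit in edgeR 4.0.16 (R 4.3.3): filterByExpr (minimum count 10, total 15; 15138 genes left), TMM scaling, the quasi-likelihood F test (robust, without covariates) and Benjamini-Hochberg adjustment over all genes tested (threshold 0.05). The procedure was tested on simulated data with 1 level of variation for all genes in both groups. Those data lack the wider spread of the PBS replicates, so that test does not cover it. Alternatives used DESeq2 1.42.0, limma 3.58.1 (voom, or trend on log2 FPKM), other scalings and filters, the replicate number as a block, and fits without 1 library at a time. Ratios of 2 factors were compared with exact permutation tests. No library repeated another: between replicates the variance was 4.45 to 19.8 times that of sampling. The labels do not pair same-numbered libraries, and their deviations from their group means correlated at 0.03 to 0.08. Such small correlations cannot settle whether the numbers pair mice. The main fit therefore left pairing out, and the replicate block was run as an alternative.

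The 9 factors and all lists, 18 with the factors, were chosen with earlier results of these data known. Named were the factors, hallmark genes (1 is not reported here), up to 8 called members of each list and the 2 nearest list genes of each factor. Any other gene was chosen after its values were seen. Tle5 was matched by its older symbol. Precision is limited by 3 libraries a group, and intervals hold for these libraries.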

Additional observations from a re-analysis of the deposited data

How the results depend on the processing

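No scaling (RLE size factors or library totals) turned the sign of any of the 9 factors, and Runx3 was called in every alternative. The number of factors called higher, 1, was 2 with no filter on low counts, and 1 to 2 with each library left out. The number called lower, 1, was 0 with limma-voom and with limma-trend on log2(FPKM + 1) or log2(FPKM + 0.1), and 0 to 1 with each library left out. With the replicate block it was 2, as Maf was called (-0.26, adjusted p = 0.0405), and 1205 genes were higher and 1333 lower. The replicate numbers do not pair the libraries by the labels, although each library correlated best with its own number. With each library left out, genes called over the whole table numbered 519 to 1287 higher and 623 to 1413 lower, against 1108 and 1253. Fits that leave out a library have 2 libraries in 1 group. Signs that turned were those of Rora (-0.13 to 0.04 with each library left out, 0.0406 without PBS 1 and 0.0239 without Akkermansia 2), Bcl6 (-0.0028 to 0.15), the Tbx21 to Gata3 ratio (-0.014 to 0.74) and the Tbx21 to Eomes ratio (-0.26 to 0.61). None of these was past a threshold, and the cause was not tested. The factors' lowest count in a library was 191, and a group holds 3 libraries, which limits the precision of every value.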

Other observations

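GENCODE release M21, an older annotation, lists 7 genes whose exons overlap those of 6 of the 9 factors, all but 1 of them on the opposite strand. The one with the most counts was Gm26626, opposite Runx1, with 19 to 69 counts per library. Rora, Bcl6, Eomes, Maf and Gata3 had such partners with at most 13 counts in any library, and Tbx21, Prdm1 and Runx3 had none.

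Among the genes of the CD4+ T cell list, Cd28, the costimulatory receptor, averaged 325 ± 32.95 CPM in the Akkermansia group against 595 ± 97.1 CPM in the PBS group (SD, n = 3). Cd28 fell by 0.87 (log2, edgeR adjusted p = 0.00163), while Thy1, a T cell surface glycoprotein, rose by 0.54 (adjusted p = 0.000321). Both held their calls in all alternatives run.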
